A study of Arabidopsis thaliana with 12 samples.

Results

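The single member described here is the array spot of CCL (CCR-LIKE, locus AT3G26740) of Arabidopsis thaliana, which carries probe number 2653. It is 1 of 692 spots that the platform annotation ties to 1 gene, on an array with 3439 spots. The spot was chosen by its probe number, for the known link of CCL to light and the clock and because it is among the brightest spots. Its brightness is therefore a description and not a finding. Values come from 12 samples, and all groups share the wild-type Landsberg background and treatment with bromoxynil at 500 µM. The dark group (n = 6) had been kept for 12 h without light. The light group (n = 6) had 30 min of light after such a dark period. Samples are called by group and by the number 1 to 6 in their title. No label tells whether samples came from separate plants, and p-values therefore cover only the spread between samples, part or all of which may be technical. No herbicide-free plants were analysed here.

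CCL is named for its likeness to CCR genes, the "cold, circadian rhythm" genes for RNA-binding proteins. Its transcript is known for a short life in the cell and for a decay rate that the circadian clock changes over the day. That decay runs through the pathway that recognises the DST (downstream) element, a sequence that makes some plant transcripts unstable. Bromoxynil, a herbicide of the nitrile class, stops electron flow out of photosystem II. The comparison asks whether the CCL transcript differs between the end of a dark period and shortly after the return of light while that block is in place.

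CCL did not pass the test for a difference between light and dark. On the normalised log2 scale its intensity was 3.69 ± 0.22 in the dark and 3.62 ± 0.25 in light (SD, n = 6 each), and the groups overlapped. The spot was brighter in numbers 5 and 6 than in numbers 3 and 4 in darkness and again in light. Under the reported scaling, this spread over the sample numbers was larger in each group than the gap between the means of light and dark.

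On the deposited linear scale of relative intensity, the brightest spot is at 100 in 10 of the 12 samples. In the dark, CCL had 8.86, 9.31, 9.76, 9.34, 16.1 and 14.1 in numbers 1 to 6. In light it had 26.6, 27.2, 8.33, 8.39, 15.2 and 12.6. Dark 5 and 6 thus stood above the other 4 dark samples, and light 5 and 6 above light 3 and 4. Light 1 and 2 were the highest of all, but their whole scale was different. The median spot had 3.88 in light 1 and 3.90 in light 2, against 0.559 to 0.654 in the other 10 samples. In light 1 and 2 the brightest spot had 48.2 and 47.6, not 100. Light 1 and 2 also ordered the spots differently. Over all tested probes their Spearman correlation with light 3 to 6 averaged 0.786, while samples 3 to 6 of that group correlated with each other at 0.938 or more. The main results below are therefore given without them as well.

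A measure that no scaling between samples can move is the place of the CCL spot in its own sample, counted from the brightest. In the dark it was at place 27, 28, 23, 25, 18 and 18 of 3439 in numbers 1 to 6. In light it was at place 23, 21, 32, 32, 19 and 22. CCL was in the top 1% of spots in every sample, with percentiles of 99.1 to 99.5, and the groups overlapped. A place tells how bright the spot is, not how abundant the transcript is beside others. The mean percentile was 99.36 ± 0.13 in the dark and 99.31 ± 0.17 in light (SD, n = 6 each). The difference of -0.048 percentile points did not pass an exact two-sided permutation test over every way to call 6 of the 12 samples light (p = 0.610). Without numbers 1 and 2 the difference was -0.153 (exact permutation p = 0.286).

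**Figure D1:**
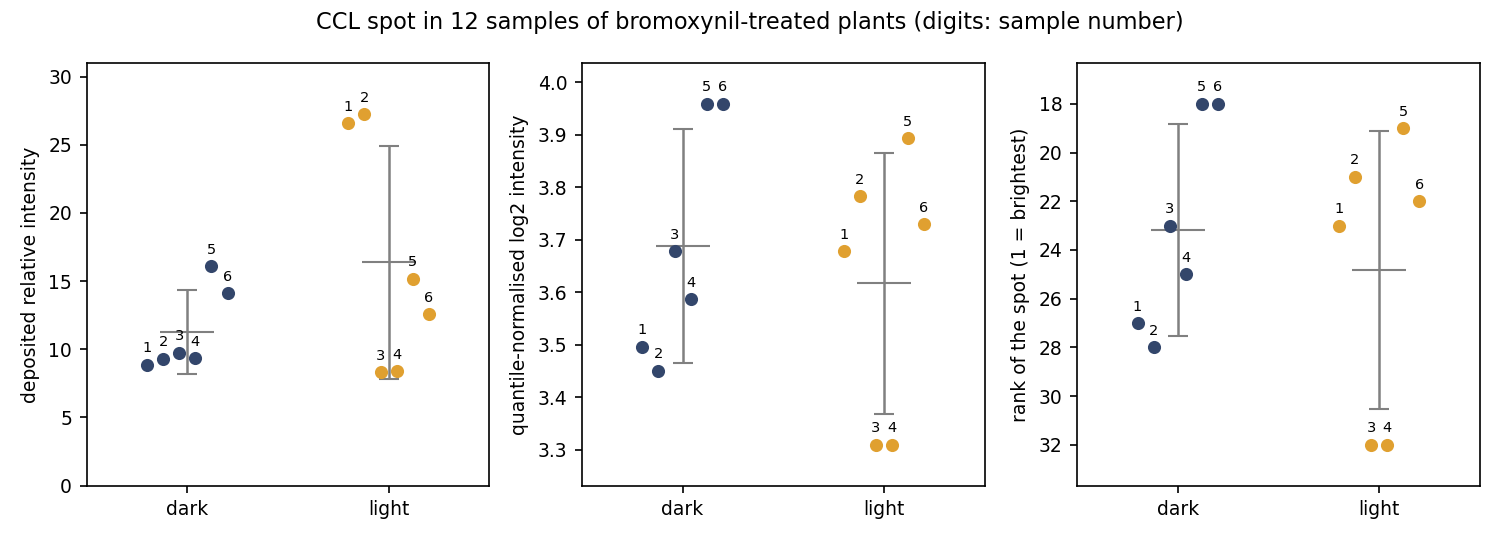
CCL in each of the 12 samples as deposited relative intensity (left), quantile-normalised log2 intensity (middle) and rank of its spot from the brightest of 3439 (right, axis inverted). Points are samples with their number, and grey bars are the group mean ± SD (n = 6). Numbers 5 and 6 lie above numbers 3 and 4 in both groups in all 3 panels, and light 1 and 2 are highest only in the deposited values.

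For the test, values were taken to log2 and the 12 samples were quantile normalised, which gives each sample the same set of values. CCL then had 3.50, 3.45, 3.68, 3.59, 3.96 and 3.96 in dark 1 to 6, and 3.68, 3.78, 3.31, 3.31, 3.89 and 3.73 in light 1 to 6. Equal values come from equal places, since a place sets the value. The lowest samples were light 3 and 4 and the highest dark 5 and 6. The log2 change, light minus dark, was -0.07 ± 0.14 (SE), with a 95% confidence interval of -0.37 to 0.23. That is a 1.05-fold lower mean in light, and the interval runs from 1.29-fold lower to 1.17-fold higher. In limma across 3381 probes the adjusted p (Benjamini-Hochberg) was 0.821, so CCL was not called. Of all tested probes 96 (2.84%) were called, 70 higher in light (2.07%) and 26 lower (0.769%). The exact two-sided permutation test on CCL alone gave p = 0.604. Of the 3381 probes, 2715 (80.3%) had a larger change than CCL in either direction, and the median change was 0.02. The smallest change among called probes was 0.31, which lies within the interval for CCL on its lower side. A fall of that size could therefore not be told from no change at this spot.

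None of 29 other settings brought CCL past the threshold, and the limma adjusted p ran from 0.135 to 0.992. The lowest of these came with numbers 1 and 2 left out and the sample number as a block, a setting chosen after the data were seen. The log2 change there was -0.26, with an interval of -0.47 to -0.06 that takes neighbouring numbers as independent. Without light 1 and 2 it was -0.14 (95% CI -0.54 to 0.25). Without numbers 1 and 2 of both groups it was -0.26 (95% CI -0.72 to 0.19, limma adjusted p 0.505).

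**Figure D2:**
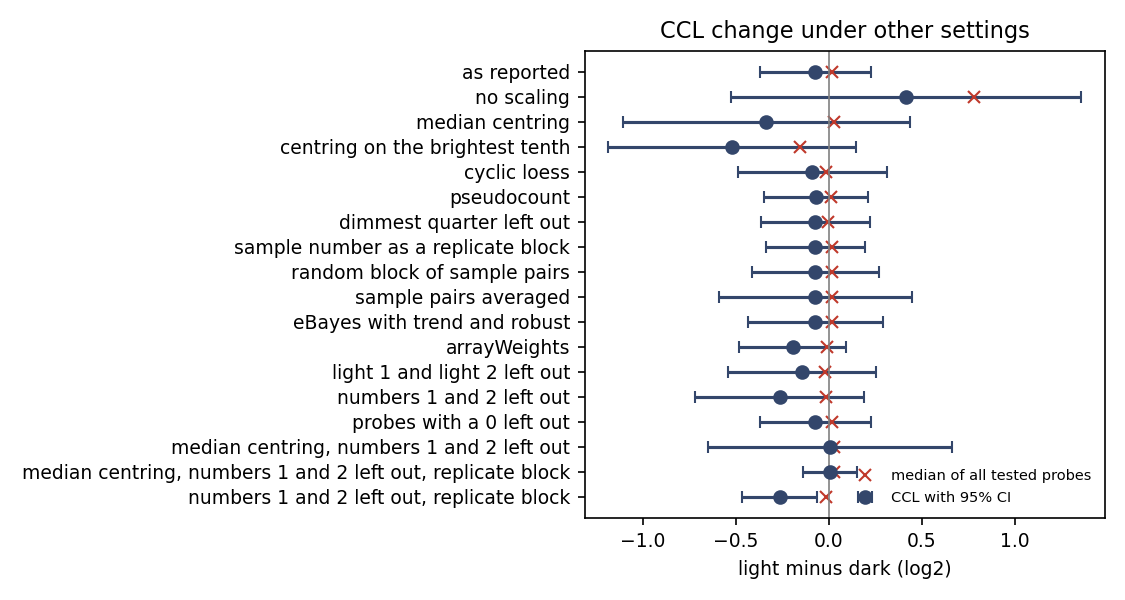
Log2 change of CCL, light minus dark, as reported and under 17 other settings, with 95% confidence intervals from limma (points and bars) and the median change of all tested probes under the same setting (crosses). All intervals but that of the last setting include 0, and CCL lies below the median of all probes in each.

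The direction of the CCL change was not the same over the sample numbers. In numbers 1 and 2 the normalised level was higher in light, by 0.18 and 0.33 on the log2 scale. For numbers 3 and 4 the differences were -0.37 and -0.28, and for 5 and 6 they were -0.07 and -0.23. CCL was thus lower in light in 4 of 6 numbers. An exact test over the 64 sign changes of these differences gave p = 0.531, where the smallest possible p is 0.0313.

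Samples with neighbouring numbers were close to each other. The values of 1 and 2, 3 and 4, and 5 and 6 differed by at most 0.09 in the dark and 0.16 in light. Between the highest and the lowest of the 3 means of such partners lay 0.485 in the dark and 0.502 in light, the latter being 1.42-fold. Across the 3193 probes with no value of 0, each of the 6 dark and 6 light samples had its highest correlation, within its group, with its partner. Whether partners are repeat measurements of 1 RNA is not given in the labels. If they are, each group holds 3 independent values, and an exact permutation test of 3 against 3 cannot go below p = 0.10. With partners averaged the exact permutation p was 0.80 for CCL, and the limma interval was -0.59 to 0.45.

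Averaged over partners, the change was 0.26 for numbers 1 and 2, -0.32 for 3 and 4, and -0.15 for 5 and 6. A test of whether the change differs among these pairs was added after the data were seen. In limma, with a moderated F test over all probes, CCL passed it (adjusted p 0.0229). So did 701 of 3381 probes (20.7%), so that passing is common on this array. The change in numbers 3 and 4 was below that in numbers 1 and 2 by 0.58 ± 0.11 (SE, limma adjusted p 0.0113). Between numbers 5 and 6 and numbers 3 and 4 the changes differed by 0.18 ± 0.11 (limma adjusted p 0.683). This test takes partners as replicates, so its p-values are too small if partners are repeat measurements.

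The sign of the change in numbers 1 and 2 depended on the scaling. As deposited, CCL was 1.57 log2 units higher in light, while the median of all probes was 2.65 higher. With each sample centred on its median spot the change was -1.02, and centred on the brightest 10% of spots it was -1.10. Quantile normalisation gave 0.26 and cyclic loess 0.32. No direction can be read from numbers 1 and 2 for this reason. In numbers 3 to 6 the values lay closer together. The median spot there had 0.624 to 0.654 in the dark and 0.559 to 0.583 in light, so it was lower in the light samples. The brightest 10% of spots, which include CCL, did not share this drop. Centring on them gave CCL changes below the deposited ones, as listed next. With median centring the changes were -0.02 for numbers 3 and 4 and 0.03 for 5 and 6. As deposited they were -0.19 and -0.13, beside medians of all probes of -0.14 and -0.13. Centred on the brightest 10% of spots they were -0.25 and -0.21, beside medians of -0.20 and -0.21. With quantile normalisation they were -0.32 and -0.15, beside medians of -0.01 and -0.01, and with cyclic loess -0.34 and -0.25, beside medians of -0.01 and -0.02. The gap between CCL and the median of all probes was thus wider under these last 2 scalings than under the other 3. Those 3 differ only by a constant per sample, so their gap is the same by construction and counts as 1 result. The difference among pairs passed the F test under all 5 scalings, with limma adjusted p from 1.26e-05 to 0.0303. The share of probes called by that test ran from 19.8% to 90.5%.

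**Figure D3:**
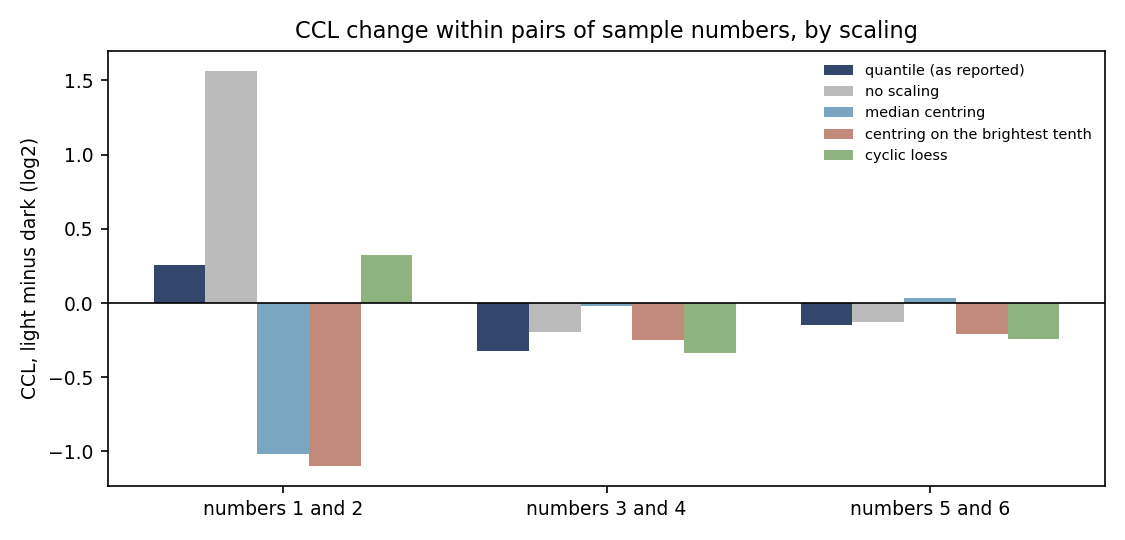
Change of CCL, light minus dark on the log2 scale, averaged over numbers 1 and 2, 3 and 4, and 5 and 6 (bars from 0), under 5 scalings. In numbers 1 and 2 the bars run from -1.10 to 1.57, and in numbers 3 to 6 from -0.34 to 0.03.

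Divided by the median spot of its own sample, CCL had 13.5 to 14.9 in dark 1 to 4 and 22.5 to 25.8 in dark 5 and 6. In light it had 14.3 to 14.5 in numbers 3 and 4 and 22.5 to 27.0 in numbers 5 and 6, so light and dark samples of the same numbers overlapped. In light 1 and 2 it had 6.85 and 6.98. The next values were centred on the median of the 3381 tested probes, and not on that of all 3439 spots. For numbers 3 to 6 the mean log2 value so centred was 4.205 in the dark and 4.211 in light. By number, the differences between light and dark on that scale were -0.05, 0.01, 0.06 and -0.0013 in numbers 3 to 6. Their mean of 0.0060 had a limma interval of -0.14 to 0.15 with the sample number as a replicate block (adjusted p 0.958), and of -0.65 to 0.66 without it. These intervals take partners as independent and are too narrow if partners are repeat measurements. The exact permutation p without pairing was 0.886 (n = 4 each). An exact test over the 16 sign changes gave p = 0.75, where the smallest possible p is 0.125. Both settings were chosen after the data were seen.

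The step between these numbers was found under each scaling. CCL was higher in numbers 5 and 6 than in numbers 3 and 4 by 1.65-fold in the dark and 1.71-fold in light with median centring. Quantile normalisation gave 1.25-fold and 1.42-fold. Of the 3193 probes above 0 in every sample, 75 (2.35%) had steps at least as large in both groups with quantile normalisation and 23 (0.720%) with median centring, CCL included. The numbers were picked after their values were seen, so no test is given. The labels do not say what the numbers stand for.

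How CCL varied beside other bright spots depended on light 1 and 2. The SD of its quantile-normalised log2 values over all 12 samples was 0.23, and 83 of the 100 brightest probes had a larger one, with a median of 0.42. Without light 1 and 2 the SD of CCL was 0.25, and only 33 of the 100 had a larger one, with a median of 0.21. In numbers 3 to 6 alone it was 0.26, and 15 of the 100 had a larger one. Within darkness, 32 of the 100 had a larger range of partner means than the 0.485 of CCL, and within light 74 of the 100 had a larger one than its 0.502. In numbers 1 and 2, 86 of the 100 brightest probes had a light-minus-dark change larger in size than that of CCL, and the median size was 0.83. In numbers 3 and 4 only 20 of the 100 had a larger change than CCL, and their median was 0.12. With median centring the SD of CCL over 12 samples was 0.64.

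The 5 single-gene spots nearest to CCL in mean normalised intensity were AT4G31530, LHB1B2, PSBW, NdhS and AT3G13150. LHB1B2 encodes a protein of the main antenna of photosystem II, PSBW a small subunit of that photosystem and NdhS a subunit of the chloroplast NADH dehydrogenase-like complex. PSBW had 4.32 to 4.72 in the 6 dark samples, 2.38 and 2.58 in light 1 and 2, and 4.203 to 4.32 in light 3 to 6. NdhS had 3.18 to 3.43 in the dark, 1.68 and 1.69 in light 1 and 2, and 3.08 to 3.31 in light 3 to 6. AT4G31530 had 3.96 to 4.32 in the dark, 2.81 and 3.08 in light 1 and 2, and 4.203 to 4.55 in light 3 to 6. In these 3 genes light 1 and 2 were the lowest samples of all 12. AT3G13150 went the other way, with 3.89 and 3.96 in light 1 and 2, 2.75 to 3.31 in the dark and 2.42 to 2.47 in light 3 to 6. LHB1B2 had 3.54 in light 1 and 2, its highest values, and 3.03 to 3.39 in the other samples. With quantile normalisation CCL had 3.68 and 3.78 in light 1 and 2, against 3.31 to 3.96 in the other 10. Under that scaling light 1 and 2 thus lay within the range of the rest for CCL, unlike for the 5 neighbours. Divided by the median spot of its own sample, CCL was lowest in light 1 and 2, with 6.85 and 6.98. As deposited it was highest there, with 26.6 and 27.2. None of the 5 neighbours was called (limma adjusted p 0.200 to 0.957). AT3G13150 had an adjusted p of 0.0294 without light 1 and 2 and of 0.0420 with median centring, with log2 changes of -0.67 and -0.47. Centred on the brightest 10% of spots its change was -0.65 (limma adjusted p 0.0187). With median centring and numbers 1 and 2 left out it was -0.32 (limma adjusted p 0.157). No transcript level is compared between genes here, since intensities of different spots share no scale.

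**Figure D4:**
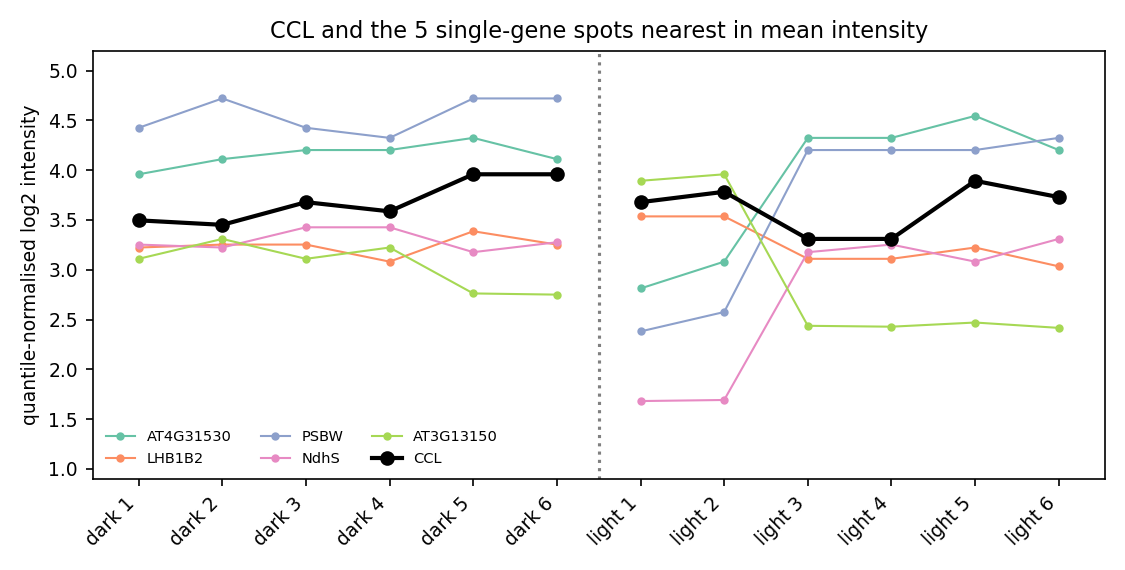
Quantile-normalised log2 intensity of CCL (black) and of the 5 single-gene spots nearest to it in mean intensity, in 6 dark and 6 light samples. Light 1 and 2 lie outside the range of the other 10 samples for the 5 neighbours, and CCL stays between 3.31 and 3.96.

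Genes whose pattern over the 12 samples was most like that of CCL were sought among 632 other single-gene spots above 0 in every sample, by Pearson correlation of normalised log2 values. The highest were GH9B8 (r = 0.78), a glycosyl hydrolase of family 9, AT1G65500 (0.77), AT2G35450 (0.77), OSB1 (0.76), an organellar protein that binds single-stranded DNA, and AT1G13990 (0.76). Within the dark samples alone their r lay between 0.75 and 0.88, and within the light samples between 0.66 and 0.89. The genes were picked on these same samples, so high values within each group follow in part from the ranking. AT1G13990 shows the shape they share. It had 0.49 to 0.72 in dark 1 to 4, 1.18 and 1.24 in dark 5 and 6, 0.68 and 0.64 in light 3 and 4, and 1.06 and 1.05 in light 5 and 6. The lowest correlations were those of AT3G56010 (-0.85), AT1G72640 (-0.79) and AT4G09970 (-0.76). AT3G56010 had 0.47 to 0.73 in dark 1 to 4 and -0.14 and 0.14 in dark 5 and 6. These values describe a ranking over 12 samples that share partners, arrays and scaling, and no test is given. Over all 632 spots the median r was 0.00. With median centring the r of the 5 most alike genes lay between -0.13 and 0.21. Without light 1 and 2, quantile-normalised r of the 5 lay between 0.80 and 0.85.

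**Figure D5:**
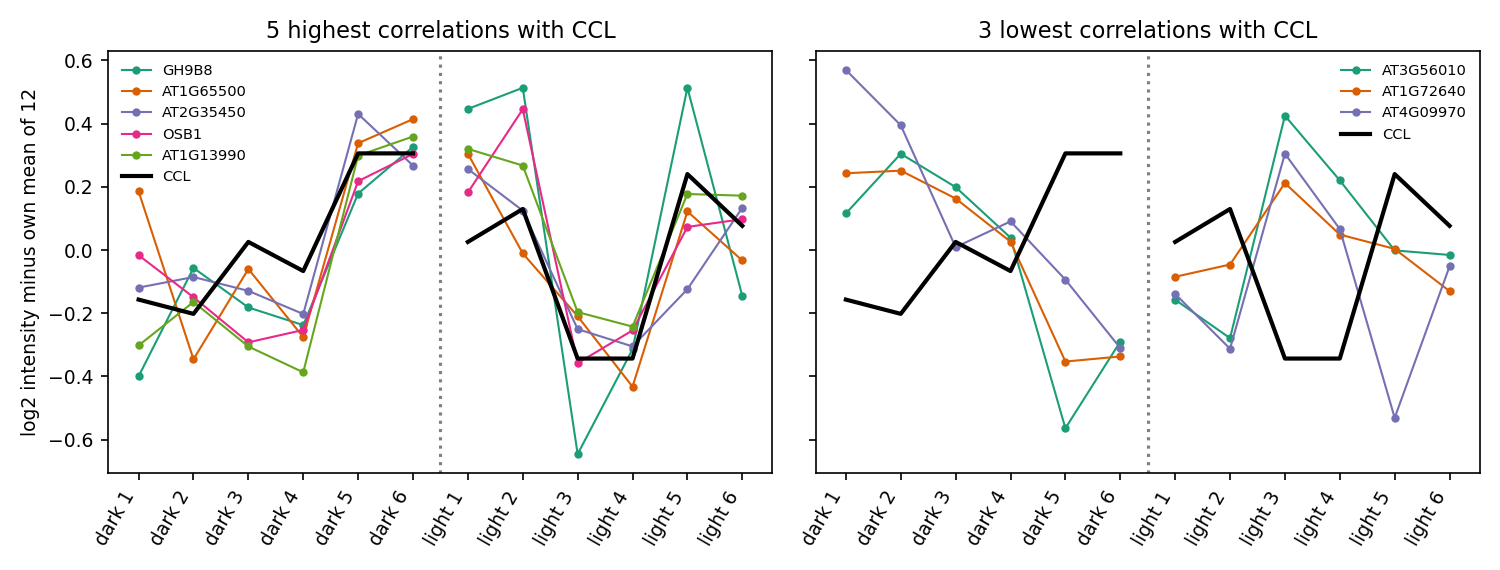
Quantile-normalised log2 intensity minus each gene's own mean of 12 samples, for CCL (black) with the 5 most positively (left) and the 3 most negatively correlated single-gene spots (right). The 5 genes are higher in dark 5 and 6 than in dark 2 to 4, like CCL, and lower in light 3 and 4 than in light 5 and 6.

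Other genes of the clock and of light control were hardly on the array as single-gene spots. Of 23 listed clock genes 1 was measured, AT5G52660, a gene of the REVEILLE family (RVE6) of MYB-like clock factors. Its intensity on the normalised log2 scale was -1.60 ± 0.10 in the dark and -1.72 ± 0.22 in light (SD, n = 6 each), and the groups overlapped. Its log2 change was -0.12 ± 0.11 (SE, limma adjusted p 0.583). For numbers 1 and 2 it was 0.01, for 3 and 4 -0.34, and for 5 and 6 -0.03. Of 10 listed clock outputs, 30 genes of light signalling and 19 genes of cytoplasmic mRNA decay, 0 were on a single-gene spot. The value of AT5G52660 thus stands alone beside that of CCL among the listed clock and light genes. Its spot was dim, with percentiles of 13.0 to 19.2 over the 12 samples, against 99.1 to 99.5 for CCL.

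Markers of green tissue were also looked up. They cannot check the tissue, since no marker of another tissue was measured beside them. Of 27 listed genes 6 were measured, with mean percentiles from 30.0 to 99.4, and of 7 root and seed markers 0 were on a single-gene spot. In limma 0 of the 6 green markers passed, and 4 had an unadjusted p under 0.05, as did 639 of all 3381 probes (18.9%). Their log2 changes ran from -0.91 to 0.35 with a median of -0.06, beside 0.02 over all probes. The extremes were PSBW and PRK, the phosphoribulokinase of the Calvin cycle. PSAN of photosystem I, PSBY of photosystem II and SBPASE of the Calvin cycle lay between them, with -0.42, 0.27 and -0.14, as did LHB1B2 with 0.02.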

How the data were processed

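The 12 samples are total RNA, each hybridised as a single channel. The authors deposited relative spot intensity values, which are linear and never below 0. How they scanned, background-corrected and scaled the arrays is not stated in the labels. The table has 3439 probes, and 58 with no value above 0 were left out. In the other 3381, each 0 was replaced by the lowest value above 0 in its sample. Log2 values were then quantile normalised over the 12 samples. Light and dark were compared in R 4.3.3 with lmFit and eBayes of limma 3.58.1 (a two-sided test, adjusted p under 0.05 by Benjamini-Hochberg over all 3381 probes, no covariate). The fit was tested on simulated data of 12 independent samples. That simulation held no correlation between partners or between samples that share a number, so it does not cover these. Exact permutation tests over samples were run for CCL alone. Errors of log2 changes are standard errors of limma, and intervals are 95% confidence intervals of limma.

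The platform annotation gives 1 gene for 692 probes, of which 690 were matched in the RefSeq table of assembly TAIR10.1, used for names only. No label names the array's genome build, and coordinates are left out. Across probes, deviations from the group means correlated at 0.337 to 0.491 between samples that share a number, so the numbers pair the samples. The fit leaves this pairing out, and the block is an alternative. No 2 samples had identical values.

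CCL, the lists and the settings were chosen with earlier results of these data known. The genes named are CCL, each list member on a single-gene probe, the 5 most and 3 least correlated with CCL, and the 5 nearest in mean intensity. Alternatives were other scalings, a pseudocount of 0.223, a filter on the dimmest 25% of probes, blocks and averages of samples, other variance models, and samples left out. Precision is limited by the sample number, and how far spots lie above background is unknown.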

Additional observations from a re-analysis of the deposited data

Results flagged for a closer look

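The change of CCL between light and dark differed among the sample numbers 1 and 2, 3 and 4, and 5 and 6, with a limma moderated F test over all probes giving an adjusted p of 0.0229. The log2 changes were 0.26, -0.32 and -0.15. The same test called 20.7% of all probes. The first of the 3 values turned to -1.02 with median centring, so the difference has no settled direction.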

How the results depend on the processing

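The light-minus-dark log2 change of CCL stayed on the same side of the threshold under all 29 alternatives, with limma adjusted p from 0.135 to 0.992. It was below 0 in 26 and above 0 in 3 of them: 0.42 without scaling, where the median of all probes was 0.78, and 0.0060 with median centring and numbers 1 and 2 left out, with or without the replicate block. Centred on the median of each sample it was -0.34, and centred on the brightest 10% of spots -0.52. Leaving out each sample in turn gave -0.13 to -0.01. With the sample number as a replicate block it was -0.07 (limma adjusted p 0.693), and with partners as a random block the adjusted p was 0.961. The replicate block changed no call on CCL or the listed genes. The percentile difference was -0.082 to -0.0068 when each sample was left out and was past the threshold in no alternative.

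The number of called probes, 96 with 70 higher and 26 lower, was 2 without scaling (2 and 0), 149 when centred on the brightest 10% (34 and 115), 16 with partners as a random block, 1 with partners averaged, 174 with arrayWeights, 186 with median centring and numbers 1 and 2 left out (146 and 40), 208 when the replicate block was added to that (172 and 36), and 49 with numbers 1 and 2 left out and the replicate block. It was 46 to 86 when each sample was left out, with 46 without dark 3, 57 without dark 4, 59 without light 5 and 60 without light 6. Averaging partners or leaving out samples leaves fewer values by construction. The count was nevertheless 98 without light 1 and 2 and 118 without numbers 1 and 2. Why the count moved was not tested for any setting. Of the 7 listed genes measured, 0 were called in any setting, and AT5G52660 was not tested with the dimmest 25% of probes left out.

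The difference in CCL change between numbers 3 and 4 and numbers 1 and 2, -0.58, turned to 0.998 with median centring and 0.85 when centred on the brightest 10%. The change in numbers 1 and 2 turned to -1.02 and -1.10 there, and that in numbers 5 and 6 to 0.031 with median centring.

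Among the other genes, signs turned without scaling for AT4G31530 (0.47), NdhS (0.29), AT3G13150 (0.28) and AT5G52660 (0.56), all below the median of 0.78. AT4G31530 also turned with cyclic loess (0.093), arrayWeights (0.084), light 1 and 2 left out (0.23), numbers 1 and 2 left out (0.17, also with the replicate block) and median centring with numbers 1 and 2 left out (0.54, also with the replicate block). In those last settings PSBW (0.028) and NdhS (0.16) turned as well. LHB1B2 turned with median centring (-0.24), the brightest 10% (-0.42), cyclic loess (-0.10), arrayWeights (-0.079), light 1 and 2 left out (-0.14) and numbers 1 and 2 left out (-0.14, also with the replicate block), and ran from -0.043 to 0.059 when each sample was left out. Correlations with CCL turned when centred on the brightest 10% for AT2G35450 (-0.14), OSB1 (-0.27), AT1G13990 (-0.16) and AT4G09970 (0.064), with median centring for OSB1 (-0.13) and AT4G09970 (0.088), and without scaling for AT3G56010 (0.67), AT1G72640 (0.72) and AT4G09970 (0.64).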
